A study of Arabidopsis thaliana with 18 samples.

Results

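The CSLC genes of Arabidopsis thaliana encode cellulose-synthase-like glucan synthases, and 5 of them were measured in dark-grown seedlings and after transfer to white light. Members were taken from the array annotation as probe sets assigned to exactly 1 of CSLC04, CSLC5, CSLC6, ATCSLC08 and CSLC12. Each gene had 1 such probe set, so 5 probe sets of the 22746 that were not controls are described, and all 5 passed the filter on dim probe sets. The filter kept 15922 probe sets.

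Seedlings of the accession Col-0 were 4 days old and etiolated. They stayed in the dark or received white light (70 to 80 micromoles of photons on each square metre every second) for 0.5 h or 4 h, and aerial parts were collected. Steady-state RNA and polysome-bound RNA were hybridised to Affymetrix arrays, giving 6 groups of 3 arrays: dark, 0.5 h and 4 h of light, each in both kinds of RNA. Polysome-bound RNA is the fraction that sediments with transcripts carrying several ribosomes in a sucrose gradient. No genotype other than Col-0 was used, and the labels call the replicates biological.

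Xyloglucan is the main hemicellulose of the primary wall in growing dicot tissues. CSLC proteins are membrane proteins of the Golgi that make its glucan backbone, to which other enzymes add xylose, galactose, fucose and acetyl groups before secretion. In the wall, xyloglucan endotransglucosylase/hydrolases (XTH) cut and rejoin the chains. Arabidopsis plants that lack the whole CSLC family have no detectable xyloglucan. The hypocotyl of an etiolated seedling elongates fast and is slowed by light, while the cotyledons open and expand. Because whole aerial parts were extracted, fewer cells that express a gene and less RNA per cell cannot be told apart.

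Array medians lay between 154 and 206, and all arrays were deposited at 1 common trimmed mean, so changes are relative to the bulk of transcripts. Signals below are linear MAS5 values with the SD, and log2 changes carry the standard error (SE) of a limma fit across all 18 arrays, with n = 3 arrays per group. A change was called when its p, adjusted by the Benjamini-Hochberg method across the 15922 probe sets, was under 0.05. Arrays of equal replicate number deviated from their group means together, so the adjusted p of a fit with the replicate number as a block is given wherever it changed a call. All 4 green-tissue genes measured (RCA, LHCB4.1, LHCB4.2 and LHCB4.3) were called higher at 4 h against dark in both kinds of RNA. Their median log2 changes were 1.28 and 1.60, and 34.0% and 35.7% of all probe sets were called in either direction. These genes were chosen with earlier results of these data known, so their rise is no independent check of the labels. Of 6 root hair genes, 1 was matched, the expansin gene EXPA7, whose group means lay between 7.07 and 21.0 and which did not pass the filter. None of the 5 shoot epidermis genes listed was matched to a probe set.

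CSLC04, the family member whose product was first shown to make the glucan backbone, had less transcript after 4 h of light in both kinds of RNA. In steady-state RNA the signals of replicates 1, 2 and 3 were 3236, 1569 and 1713 in the dark. They were 1901, 754 and 812 at 0.5 h and 1276, 588 and 583 at 4 h. The 3 signals at 4 h were all below the 3 dark signals, as they were for 22.6% of probe sets, whereas the 0.5 h signals overlapped both neighbours, and replicate 1 was the highest at each time.

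The mean of CSLC04 in steady-state RNA went from 2173 ± 924 in the dark to 816 ± 398 at 4 h. This was a log2 change of -1.44 ± 0.372 (limma adjusted p = 0.00474), a 2.71-fold fall. Within replicate numbers, the log2 changes were -1.34, -1.42 and -1.55, which lay much closer together than the signals themselves. CSLC04 was the 1 member of 5 called in this comparison, where 34.0% of all probe sets tested were called and 17.1% were lower. With 5 members, 1 call is near both shares. The call held when any 1 array was left out (highest adjusted p = 0.0358). In fits without the block, it ended when all arrays of replicate number 2 or of number 3 were left out. The adjusted p was then 0.0536 and 0.0707, with log2 changes of -1.45 and -1.38. With the block and all arrays, the limma adjusted p was 1.18e-07 (SE 0.154).

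In polysome-bound RNA, CSLC04 signals were 2531, 1413 and 1749 in the dark, 1634, 908 and 1124 at 0.5 h, and 834, 574 and 486 at 4 h. Again the 4 h arrays were all below the dark arrays, as for 26.5% of probe sets, and here they were also all below the 0.5 h arrays, as for 26.0%. The change from dark to 4 h was -1.58 ± 0.372 on the log2 scale (limma adjusted p = 0.00221), a 2.99-fold fall from a mean of 1897 ± 573 to 632 ± 181. CSLC04 was the 1 member called lower in both kinds of RNA, as were 13.0% of all probe sets. Without replicate number 3 the polysome change was -1.45 and no longer called in the fit without the block (adjusted p = 0.058). With the block and all arrays, the limma adjusted p was 2.95e-08.

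The early time point of CSLC04 depended on how the replicate numbers were handled. At 0.5 h the log2 change against dark was -0.97 ± 0.372 in steady-state RNA (adjusted p = 0.394) and -0.64 ± 0.372 in polysome RNA (adjusted p = 1), so neither was called without the block. The replicate-wise changes were -0.77, -1.06 and -1.08 in steady-state RNA and -0.63, -0.64 and -0.64 in polysome RNA. With the replicate block CSLC04 was called lower in both, at adjusted p = 0.000449 and 0.0262, and it was the 1 member of 5 called in either. The background of that fit was 2.57% of probe sets called at 0.5 h in steady-state RNA and 2.24% in polysome RNA. In steady-state RNA without the block, CSLC04 was also called without replicate 1 of the 0.5 h group, at -1.39 (adjusted p = 0.0436). That fit kept replicate 1 of the dark group, so the pairing was broken. Without all arrays of replicate number 1 the change was -1.07 (limma adjusted p = 0.0021), and without number 2 or 3 it was not called.

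From 0.5 h to 4 h, CSLC04 changed by -0.47 ± 0.372 in steady-state RNA (adjusted p = 0.372) and by -0.95 ± 0.372 in polysome RNA (adjusted p = 0.0563). Both were called with the replicate block (adjusted p = 0.0171 and 3.74e-05), where 42.5% and 42.8% of probe sets were called. In order of level, CSLC04 stood highest in the dark, lower at 0.5 h and lowest at 4 h in each kind of RNA. Each group in the order of all 6 overlapped the next.

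**Figure D1:**
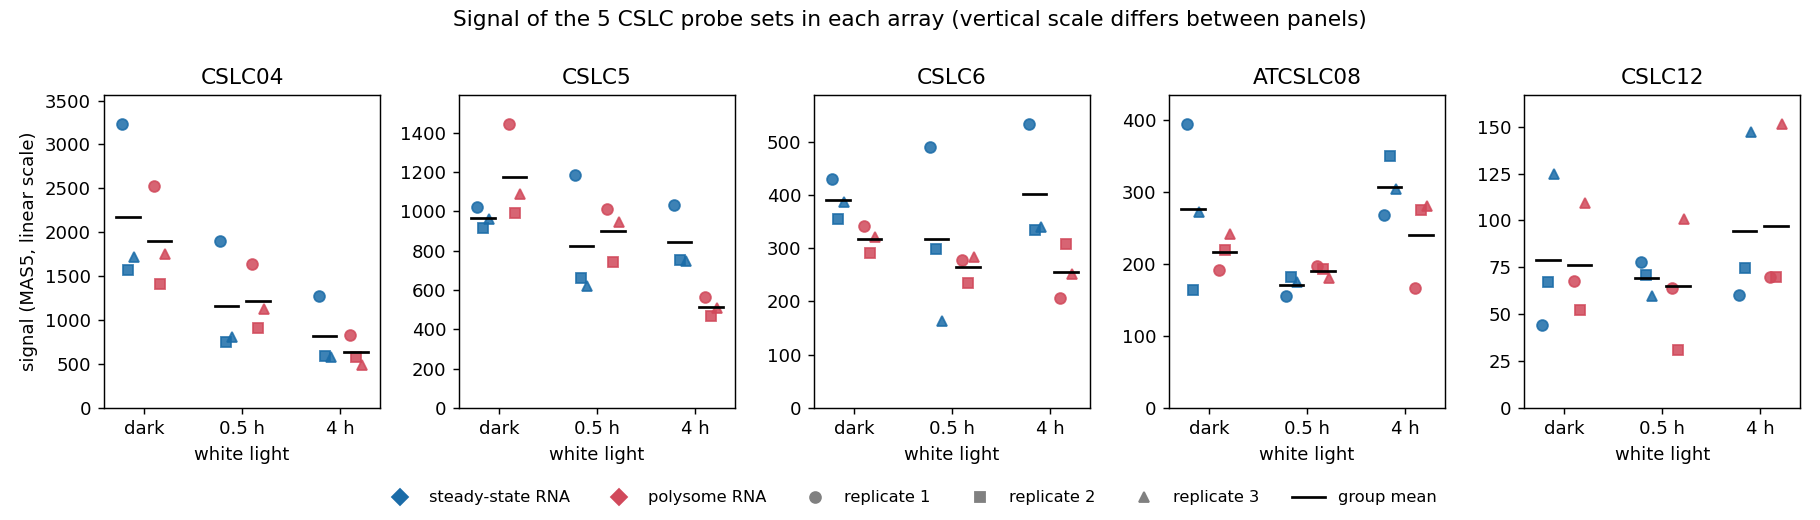
Signal of each CSLC probe set (linear MAS5 scale, vertical axis, with its own range in each panel) in every array, by light condition (horizontal axis) and kind of RNA (colour). Symbols mark the replicate number and black lines the mean of 3 arrays; CSLC04 went down in both colours, CSLC5 in polysome RNA at 4 h, where its 3 arrays lay between 468 and 563, and replicate 1 was the highest array of CSLC04 and CSLC5 in 6 of 6 groups.

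CSLC5, a second glucan synthase of the family, fell on polysomes at 4 h while its steady-state change was not called. In steady-state RNA the signals of replicates 1 to 3 were 1023, 917 and 961 in the dark, 1185, 660 and 620 at 0.5 h, and 1034, 752 and 747 at 4 h. Dark and 4 h arrays overlapped, and the dark arrays were the most alike of the 3 steady-state groups (SD 52.9, against 315 at 0.5 h and 164 at 4 h). The log2 change of CSLC5 at 4 h was -0.21 ± 0.221 in steady-state RNA, with a 95% interval from -0.67 to 0.25 (adjusted p = 0.515).

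In polysome-bound RNA, CSLC5 gave 1447, 992 and 1091 in the dark, 1014, 742 and 948 at 0.5 h, and 563, 468 and 510 at 4 h. All 3 arrays at 4 h were lower than each of the other polysome arrays, and lower than every steady-state array of the gene. Polysome arrays at 4 h were all below the dark ones for 26.5% of probe sets and below the 0.5 h ones for 26.0%. They were all below the 4 h steady-state arrays for 18.5%. A share for all of these together was not computed. The mean went from 1177 ± 239 in the dark to 514 ± 47.6 at 4 h, a log2 change of -1.18 ± 0.221 (limma adjusted p = 0.000284) and a 2.27-fold fall. The steps were -0.38 ± 0.221 from dark to 0.5 h (adjusted p = 1) and -0.80 ± 0.221 from 0.5 h to 4 h (adjusted p = 0.00815).

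CSLC5 and CSLC04 were the 2 members of 5 called at 4 h in polysome RNA, where 35.7% of probe sets were called and 20.1% were lower. CSLC5 was the 1 member called lower in polysome RNA and not called in steady-state RNA, a pattern met by 7.11% of probe sets. CSLC5 was the 1 member called from 0.5 h to 4 h in polysome RNA, against a background of 33.4%, with 18.9% lower. The 4 h change of CSLC5 against dark kept its call with any array left out, within -1.29 and -1.02, and with any replicate number left out. The change from 0.5 h to 4 h kept it for single arrays and lost it without replicate number 2 (-0.87, adjusted p = 0.0707) or 3 (-0.76, adjusted p = 0.0951). These leave-out fits had no block. With the block and all arrays, the limma adjusted p was 2.02e-06 at 4 h against dark and 0.000237 from 0.5 h to 4 h.

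The log2 ratio of polysome to steady-state signal of CSLC5 was 0.27 ± 0.221 in the dark, 0.19 ± 0.221 at 0.5 h and -0.70 ± 0.221 at 4 h, and the last was called (adjusted p = 0.0407). In replicates 1, 2 and 3 the 4 h ratios were -0.88, -0.68 and -0.55, all below the dark ratios of 0.50, 0.11 and 0.18, as was so for 11.9% of probe sets. CSLC5 was the 1 member of 5 called in this comparison, which called 13.4% of all probe sets and 7.84% as lower. That call ended with any of the 6 arrays left out (adjusted p from 0.0602 to 0.167), with a common median (-0.57, adjusted p = 0.166) and without the intensity trend (adjusted p = 0.0675). It also ended without replicate number 2 or 3 (adjusted p = 0.306 and 0.161). With the block it was at adjusted p = 0.0023, where 23.1% of probe sets were called.

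The test of the difference between the kinds of RNA is the change of that ratio from dark to 4 h. For CSLC5 it was -0.97 ± 0.313, with a 95% interval from -1.62 to -0.32, and lower in 3 of 3 replicates (-1.38, -0.80 and -0.74). It was not called without the block (limma adjusted p = 0.272) and was called with it (adjusted p = 0.0222). Few probe sets were called here at all: 0.364% without the block, with 0.0314% lower, and 1.88% with it, with 0.496% lower. Over all probe sets the median change of the ratio was -0.10, and CSLC5 lay below that median. The share of probe sets as low as CSLC5 was not computed. At an unadjusted p under 0.05 there was 1 member, beside 7.96% of all probe sets. For CSLC04, called lower in both kinds of RNA, the ratio changed by -0.14 ± 0.526 (95% interval -1.24 to 0.95, adjusted p = 0.985).

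**Figure D2:**
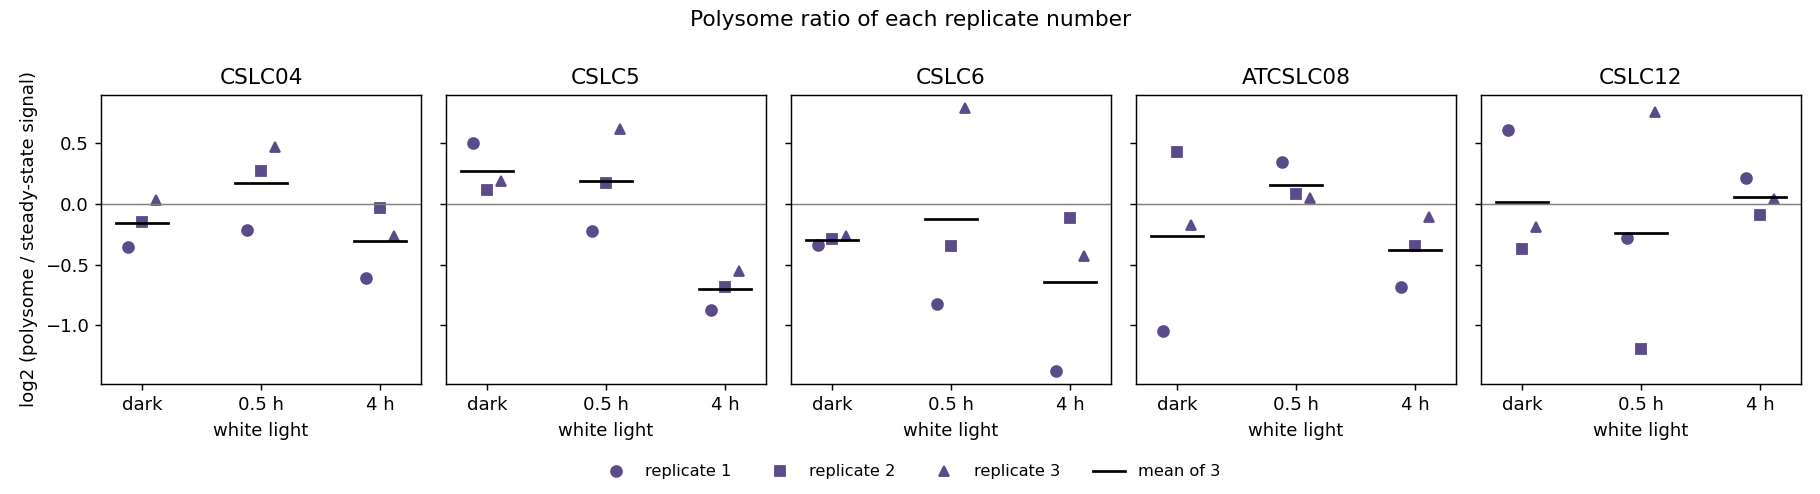
Log2 ratio of polysome to steady-state signal (vertical axis) of each CSLC gene in each replicate number (symbols) by light condition (horizontal axis), with the mean of 3 as a black line. CSLC5 lay between -0.88 and -0.55 at 4 h, below its dark values of 0.11 to 0.50 (11.9% of all probe sets were placed so), while the ratios of the other members at 4 h overlapped those in the dark.

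CSLC6, a further glucan synthase of the family, was not called in any light comparison over all arrays. Its steady-state signals were 431, 355 and 387 in the dark, 490, 299 and 164 at 0.5 h, and 534, 334 and 340 at 4 h. Dark and 4 h arrays overlapped, and the 0.5 h arrays spread widest. At 4 h the log2 change was 0.01 ± 0.288 in steady-state RNA, with a 95% interval from -0.59 to 0.61. In polysome RNA the signals were 341, 291 and 322 in the dark, 277, 235 and 283 at 0.5 h, and 206, 308 and 252 at 4 h. There the 0.5 h arrays were all below the dark arrays, as for 5.53% of probe sets, and the 4 h arrays overlapped them.

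The polysome changes of CSLC6 against dark were -0.26 ± 0.288 at 0.5 h and -0.33 ± 0.288 at 4 h (adjusted p = 1 and 0.414). Its log2 ratio of polysome to steady-state signal was -0.30 ± 0.288 in the dark, -0.13 ± 0.288 at 0.5 h and -0.64 ± 0.288 at 4 h (lowest adjusted p = 0.161, at 4 h). Polysome arrays of CSLC6 lay below all steady-state arrays in the dark and at 4 h, which was so for 12.7% and 18.5% of probe sets. From 0.5 h to 4 h in steady-state RNA CSLC6 was at 0.44 ± 0.288 (adjusted p = 0.264), and at 0.12, 0.16 and 1.05 in replicates 1, 2 and 3. It was called with 1 of the 6 arrays left out, 0.5 h replicate 1, at 0.83 (adjusted p = 0.0187). That fit kept 4 h replicate 1, and without all arrays of replicate number 1 it was not called. The polysome value for that step was -0.07 ± 0.288.

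ATCSLC08, the probe set of CSLC8, was lowest at 0.5 h and rose to 4 h in steady-state RNA. Its signals there were 395, 164 and 273 in the dark, 156, 183 and 176 at 0.5 h, and 269, 350 and 304 at 4 h. The 4 h arrays were all above the 0.5 h arrays, as for 20.7% of probe sets, and the dark arrays spread over the range of both. The rise from 0.5 h to 4 h was 0.84 ± 0.269 on the log2 scale (limma adjusted p = 0.0202), and 0.78, 0.94 and 0.79 in the 3 replicates. It was the 1 member of 5 called in this comparison, in which 33.9% of probe sets were called and 16.4% were higher.

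That call of ATCSLC08 ended without 0.5 h steady-state replicate 1 (0.77, adjusted p = 0.0548) or 4 h steady-state replicate 2 (0.74, adjusted p = 0.0808). It also ended without replicate number 2 or 3 (0.79 and 0.86, adjusted p = 0.129 and 0.131). These leave-out fits had no block. With the block and all arrays, the limma adjusted p was 0.012. Against dark, ATCSLC08 was at -0.61 ± 0.269 at 0.5 h (adjusted p = 0.57) and 0.23 ± 0.269 at 4 h (adjusted p = 0.564) in steady-state RNA. In polysome RNA its signals were 192, 219 and 242 in the dark, 198, 193 and 181 at 0.5 h, and 167, 275 and 282 at 4 h. The groups overlapped, with log2 changes against dark of -0.18 ± 0.269 at 0.5 h and 0.12 ± 0.269 at 4 h, and 0.30 ± 0.269 between these times. Its log2 ratios of polysome to steady-state signal were -0.27 ± 0.269, 0.16 ± 0.269 and -0.38 ± 0.269 in the 3 light conditions, and none was called (lowest adjusted p = 0.413).

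CSLC12 had the dimmest probe set of the family relative to the filter, whose smallest geometric mean was 42.1, and the widest errors. Its geometric mean over all arrays was 74.2. Steady-state signals were 44.2, 67.4 and 125 in the dark, 77.7, 71.0 and 59.7 at 0.5 h, and 60.2, 74.7 and 147 at 4 h. Polysome signals were 67.5, 52.0 and 109 in the dark, 63.9, 31.1 and 101 at 0.5 h, and 69.7, 70.0 and 152 at 4 h. All groups overlapped, and replicate 3 was the highest array in 5 of 6 groups.

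Against dark, CSLC12 was at -0.06 ± 0.531 and 0.28 ± 0.531 in steady-state RNA at 0.5 h and 4 h, and at -0.31 ± 0.531 and 0.32 ± 0.531 in polysome RNA. The 95% intervals at 4 h ran from -0.83 to 1.39 and from -0.79 to 1.42, the widest in the family. From 0.5 h to 4 h it was at 0.34 ± 0.531 in steady-state RNA and 0.63 ± 0.531 in polysome RNA, and CSLC12 was called in no comparison. Its log2 ratios of polysome to steady-state signal were 0.02, -0.24 and 0.05 (SE 0.531 for each) in the dark, at 0.5 h and at 4 h.

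**Figure D3:**
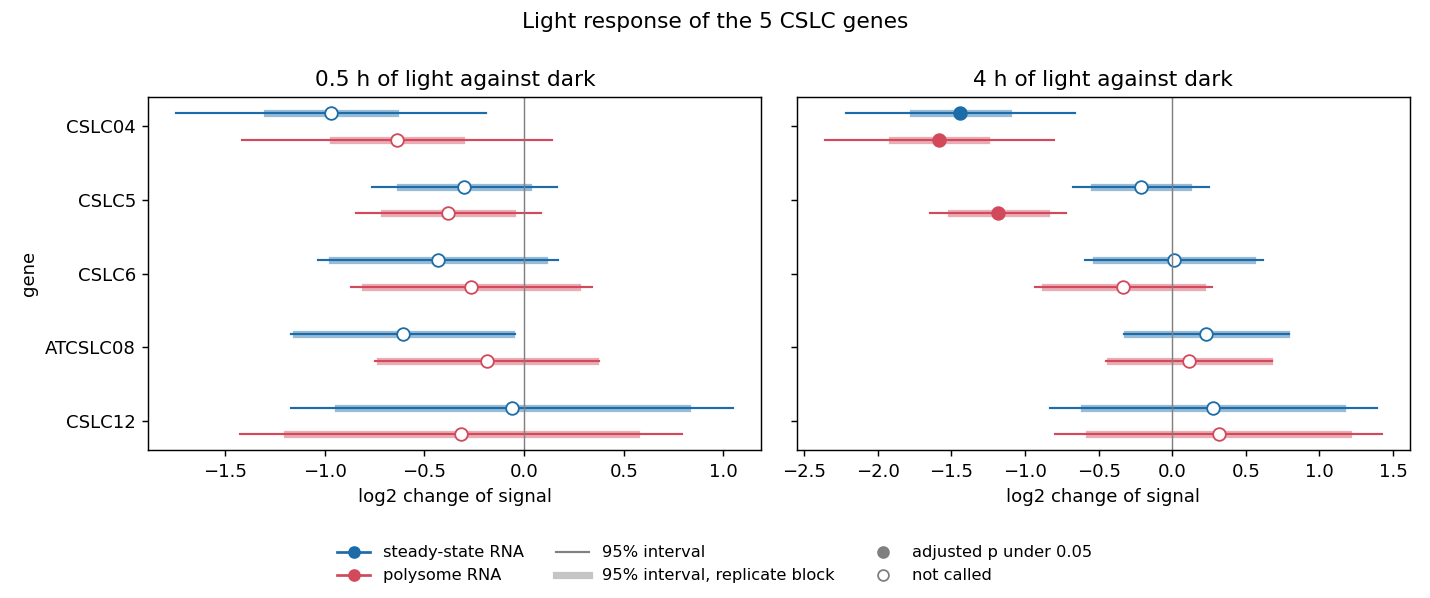
Log2 change of signal against dark (horizontal axis) for the 5 CSLC genes (vertical axis) at 0.5 h and 4 h of light, in steady-state RNA (blue) and polysome RNA (red). Thin lines are 95% intervals of the fit without the block, thick lines those with the replicate block, and filled points passed the adjusted p threshold without the block: CSLC04 in both kinds of RNA (-1.44 and -1.58) and CSLC5 in polysome RNA (-1.18), all at 4 h.

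At 0.5 h against dark, 5 of 5 members had a log2 change below 0 in steady-state RNA (median -0.43) and 5 of 5 in polysome RNA (median -0.31). Over all probe sets tested, 47.9% and 50.3% were below 0, with medians of 0.02 and -0.0015. The side of CSLC12 rested on single arrays, and it was higher in 2 of 3 replicates in steady-state RNA. It was at 0.34 there without dark replicate 3 and 0.047 without 0.5 h replicate 3. In polysome RNA it was at 0.14 without 0.5 h replicate 2. CSLC5 and CSLC6 were also higher in steady-state replicate 1 (0.21 and 0.19), and ATCSLC08 in replicate 2 (0.16). CSLC04 alone was lower in 3 of 3 steady-state replicates. In polysome RNA every member but ATCSLC08 (0.047 in replicate 1) was lower in 3 of 3. No member passed limma's test at 0.5 h without the block, where 1.43% and 1.31% of probe sets were called, and 2 and 0 members had an unadjusted p under 0.05, beside 7.74% and 5.69% of all probe sets. At 4 h the members' median was 0.01 in steady-state RNA (-0.0067 over all probe sets) and -0.33 in polysome RNA (-0.09 over all).

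The polysome ratio was called for 0 of 5 members in the dark and at 0.5 h, where 8.25% and 8.32% of probe sets were called. No member had an unadjusted p under 0.05 there, beside 22.1% and 23.2% of all probe sets. Change of the ratio from dark to 0.5 h spanned -0.26 to 0.42 over the members and from 0.5 h to 4 h -0.89 to 0.29. No member was called in either (lowest adjusted p = 1 and 0.421), and the background was 0% and 0.0188% of probe sets called. At an unadjusted p under 0.05 there were 0 and 1 members, beside 1.61% and 7.94% of all probe sets.

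The members' 4 h changes were set against each other in 20 pairs, 10 in each kind of RNA. The exact two-sided permutation test of 3 arrays against 3 cannot give a p below 0.1 (0.182 after adjustment over the 20 pairs), so it could pass no pair whatever the difference and is not informative here. The differences are therefore given as values within replicate numbers, an addition made after seeing the data, with no test. In steady-state RNA the log2 change of CSLC04 minus that of CSLC5 was -1.36, -1.13 and -1.19 in replicates 1, 2 and 3 (-1.23 ± 0.119, SD, n = 3). The difference of CSLC04 from CSLC6 was -1.65, -1.33 and -1.37, and from CSLC12 -1.79, -1.57 and -1.80. From ATCSLC08 it was -0.79, -2.52 and -1.71, with the widest spread of the 4 pairs (SD 0.866). In steady-state RNA CSLC04 thus had the lower change in each replicate of its 4 pairs. In polysome RNA the difference of CSLC04 from CSLC5 was smaller, at -0.24, -0.22 and -0.75 (-0.40 ± 0.300, SD, n = 3). CSLC5 minus CSLC6 was -0.64, -1.17 and -0.75 in polysome RNA (-0.85 ± 0.279, SD, n = 3), against -0.29, -0.20 and -0.18 in steady-state RNA. CSLC5 minus ATCSLC08 was -1.16, -1.41 and -1.32 in polysome RNA, and 0.57, -1.39 and -0.52 in steady-state RNA, where the sign differed between replicates.

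Replicate numbers marked CSLC04 and CSLC5 alike. Replicate 1 was the highest array in 6 of 6 groups for CSLC04 and 6 of 6 for CSLC5, in 4 of 6 for CSLC6, 2 of 6 for ATCSLC08 and 1 of 6 for CSLC12. Deviations from the group means correlated at 0.88 between CSLC04 and CSLC5 and at 0.74 between CSLC5 and CSLC6 over the 18 arrays. For CSLC04 with ATCSLC08 and with CSLC12 they were at -0.07 and -0.23. These correlations are descriptions, since steady-state and polysome arrays of a number deviated together. What arrays of a number share was not given in the labels.

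The probe sets most like each member over the 18 arrays were taken by Pearson r of log2 signal among 8788 tested probe sets listing 1 gene. For CSLC04 they were AT1G17620 (0.93), the β-expansin gene EXPB1 (0.93) and the α-expansin gene EXPA8 (0.91), expansins being wall-loosening proteins. For CSLC5 they were AT1G17620 (0.90), AT3G49880 (0.89) and AT5G26850 (0.87), so AT1G17620 led for both. Within groups, where only replicate differences remain, r was 0.93 between CSLC04 and AT1G17620 and 0.85 between CSLC5 and AT1G17620. CSLC6 was most like AT4G11380 (0.86), AT1G12500 (0.85) and AT3G09630 (0.83), and ATCSLC08 like AT3G22970 (0.79), AT4G01460 (0.76) and AT4G10320 (0.74). CSLC12 was most like AT1G04150 (0.91), AT1G43715 (0.85) and AT1G74750 (0.83).

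Few other genes of xyloglucan and of the cellulose-synthase superfamily were matched to a probe set listing 1 gene. Of 21 genes for xyloglucan side chains, acetylation, trimming and sugar supply, 1 was tested, AXY9, which takes part in acetylation of the polymer. AXY9 was at -0.14 ± 0.233 in steady-state RNA and -0.25 ± 0.233 in polysome RNA at 4 h, and was not called (adjusted p = 0.712 and 0.455). None of the 10 cellulose synthase genes was matched. Of 25 other cellulose-synthase-like genes, 3 were matched and 2 tested. CSLA3, of the mannan synthase group, rose in steady-state RNA from 407 ± 82.4 in the dark to 1128 ± 176 at 4 h, by 1.48 ± 0.269 (adjusted p = 0.000208). CSLA3 gave 0.67 ± 0.269 in polysome RNA, with an adjusted p of 0.0589, or 0.0368 under the block. Its log2 ratio of polysome to steady-state signal at 4 h was -1.26 ± 0.269 (adjusted p = 0.00405), further below 0 than that of CSLC5. In that comparison 13.4% of all probe sets were called and 7.84% were lower. In the dark the ratio of CSLA3 was already -0.46 ± 0.269, where that of CSLC5 was 0.27. From dark to 4 h the ratio of CSLA3 changed by -0.81 ± 0.381, not called (limma adjusted p = 0.615, or 0.328 under the block). CSLD2 was at -0.43 ± 0.208 in steady-state RNA (adjusted p = 0.126) and fell in polysome RNA by 0.82 ± 0.208 (adjusted p = 0.00406).

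Of the 33 XTH genes, which act on finished xyloglucan, 10 were matched and 7 tested, and they moved in both directions at 4 h. In steady-state RNA 3 were higher, 3 lower and 1 not called (median -0.64), and in polysome RNA 3 were higher, 3 lower and 1 not called (median -0.02). Over all probe sets, 34.0% and 35.7% were called, with medians of -0.0067 and -0.09. XTH32 rose from 221 ± 40.0 in the dark to 4418 ± 559 in steady-state RNA, by 4.33 ± 0.193 (adjusted p = 5.77e-12), and by 4.34 ± 0.193 in polysome RNA. XTH16 rose by 1.39 ± 0.215 and 0.86 ± 0.215. XTH19 fell from 2606 ± 640 to 211 ± 89.8 in steady-state RNA, a log2 change of -3.71 ± 0.29 (adjusted p = 4.8e-09), and was at -3.76 ± 0.29 in polysome RNA (adjusted p = 4.12e-09). XTH18 changed by -1.84 ± 0.373 and -1.92 ± 0.373 (adjusted p = 0.00061 and 0.000397). At 0.5 h against dark no XTH gene was called in either kind of RNA without the block. In that fit XTH33 was at -0.65 ± 0.277 in steady-state RNA and -0.71 ± 0.277 in polysome RNA (limma adjusted p = 0.523 and 0.531). With the block XTH33 was called lower in both, at adjusted p = 0.0467 and 0.0263, where 2.57% and 2.24% of all probe sets were called.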

How the data were processed

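Each of the 18 columns the authors deposited holds a linear intensity per probe set. The submitters' processing notes name MAS5, and which release was run was not given in the sources used here. This table holds 22810 probe sets for 18 arrays, with a 2% trimmed mean of 500.04 to 500.05 in each array. No pair of arrays shared more than 0.285% of signals. From these intensities, 64 control probe sets were left out, 915 values under 1 were raised to 1, log2 was taken and probe sets below the 30th percentile of mean log2 signal were dropped. Depth does not apply; the number of arrays limits precision. Detection calls were not used here.

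Probe sets were named from the platform annotation and matched to loci through RefSeq's gene table (TAIR10.1); 13513 list 1 gene.

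Changes were tested in R 4.3.3 with limma 3.58.1 (1 mean per group, an intensity trend, Benjamini-Hochberg adjustment) for 12 comparisons. Deviations from group means correlated at 0.108 to 0.426 between arrays of equal replicate number and at most 0.0359 for different numbers, over 9 pairs of groups. Equal numbers therefore pair the arrays, on the evidence of the data; the labels give only the numbers.

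Members, gene lists and tests were chosen with earlier results of these data known. Genes named are all members, the 3 most similar probe sets to each, and for each list the 2 largest called rises and falls at 4 h in each kind of RNA, with AXY9, EXPA7 and XTH33 named beside them after their values were seen. The promoter motif search of the rule was not run, as no sequence was used here. Alternatives were the replicate block, quantile normalization, a common median, no trend, no filter, a filter at the 50th percentile leaving 11373 probe sets, signals plus 32, a fit on only the arrays compared, leaving out each array and, added after the data were seen, leaving out each replicate number and taking differences between members within replicate numbers.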

Additional observations from a re-analysis of the deposited data

Results flagged for a closer look

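The light response of CSLC5 differed between the kinds of RNA in 1 of the 2 fits. Its ratio of polysome to steady-state signal changed by -0.97 on the log2 scale from dark to 4 h, which passed the test with the replicate block (limma adjusted p = 0.0222) and did not pass without it (adjusted p = 0.272).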

How the results depend on the processing

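The replicate block, used because equal numbers pair the arrays, took the count of members called to 1 at 0.5 h against dark in each kind of RNA, to 2 from 0.5 h to 4 h in each, and to 1 for the change of the polysome ratio at 4 h; it ended no call. The count from 0.5 h to 4 h in polysome RNA was also 2 with the stricter filter and with the compared arrays alone, where CSLC04 joined. For CSLC5 at 4 h, polysome against steady-state RNA gave -0.57 with a common median and -0.70 without the intensity trend, both not called, so the count was 0. Uncalled values that turned sign were CSLC6 at 4 h against dark in steady-state RNA (-0.038 after quantile normalization, -0.097 with a common median), CSLC5 from 0.5 h to 4 h in steady-state RNA (-0.0045, common median), the ratio change of ATCSLC08 at 4 h (0.0044, common median) and the dark ratio of CSLC12 (-0.0024, 32 added). The cause of these shifts was not tested.

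Leaving out an array or a replicate number, in fits without the block, moved the members called as follows. At 4 h against dark the count was 0 to 1 in steady-state RNA and 1 to 2 in polysome RNA, and at 0.5 h in steady-state RNA 0 to 1. From 0.5 h to 4 h it was 0 to 1 in steady-state RNA and 0 to 2 in polysome RNA. For polysome against steady-state RNA at 4 h, and for the ratio change from 0.5 h to 4 h, it was 0 to 1. Among calls, CSLC04 at 4 h against dark spanned -1.81 to -1.11 in steady-state RNA and -1.80 to -1.35 in polysome RNA. CSLC5 spanned -0.94 to -0.71 from 0.5 h to 4 h in polysome RNA and -0.78 to -0.55 for polysome against steady-state RNA at 4 h, and ATCSLC08 0.74 to 0.93 from 0.5 h to 4 h in steady-state RNA.

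The same settings turned the sign of values that were not called. At 0.5 h against dark CSLC12 spanned -0.49 to 0.44 in steady-state RNA and -0.70 to 0.14 in polysome RNA. At 4 h against dark in steady-state RNA, ATCSLC08 spanned -0.20 to 0.63, CSLC12 -0.10 to 0.68 and CSLC6 -0.21 to 0.13; in polysome RNA, ATCSLC08 spanned -0.016 to 0.36 and CSLC12 -0.057 to 0.61. From 0.5 h to 4 h the spans were -0.15 to 0.69 for CSLC12 and -0.084 to 0.38 for CSLC5 in steady-state RNA, and -0.30 to 0.11 for CSLC6 in polysome RNA. The ratio change at 4 h spanned -0.42 to 0.22 for ATCSLC08, -0.47 to 0.23 for CSLC04, -0.36 to 0.42 for CSLC12 and -0.60 to 0.0025 for CSLC6. The dark ratio spanned -0.61 to 0.12 for ATCSLC08, -0.39 to 0.17 for CSLC04 and -0.34 to 0.41 for CSLC12. The 0.5 h ratio spanned -0.067 to 0.60 for CSLC04, -0.74 to 0.24 for CSLC12, -0.028 to 0.48 for CSLC5 and -0.59 to 0.25 for CSLC6. The 4 h ratio spanned -0.52 to 0.072 for CSLC04 and -0.32 to 0.43 for CSLC12. The number of arrays, 3 per group, limits the precision of each value.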
